A study of Brassica napus with 355 samples.

Results

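Brassica napus had 41325 genes with a mean level of at least 2 CPM over the series (CPM, counts scaled to the library total). Of these, 100 had the highest leaf expression at night under water limitation relative to ample water, among genes differing little at 3 other times. Both properties are those of means over accessions, and single accessions could differ more. The 100 genes were chosen from measured values. For each gene, log2(CPM + 1) in water-limited (WL, 20% of soil water capacity) minus well-watered (WW, 100%) plants was taken within each of 16 accessions and averaged over accessions, and the 100 genes with the highest value at ZT19 were kept out of the 19995 genes whose average lay between -0.25 and 0.25 at ZT1, ZT7 and ZT13 (ZT, hours after dawn). The size and direction of the ZT19 difference are therefore what the choice used, and are given as a description without a test.

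B. napus is an allopolyploid that carries a BnA subgenome from B. rapa and a BnC subgenome from B. oleracea, so that many genes are present as homoeologs. In plants the circadian clock gates many stress responses, so that the same water deficit can change a transcript at one time of day and leave it alone at another. At night leaves draw on stored starch and stomata are largely closed, and many transcripts reach their daily peak or trough in the dark.

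RNA came from the apex of the youngest leaf of the accessions Aburamasari (Ab), Alaska_BnASSYST_004 (Al), Aviso (Av), Bristol_BnASSYST-031 (Br), Campari_BnASSYST-075 (Ca), DH12075 (DH12), DH2075 (DH20), Darmor (Da), Gruener Schnittrohl_BnASSYST-219 (Gr), Musette_BnASSYST-056 (Mu), NK_Nemax_BnASSYST-084 (Ne), Quantum NE011 (Qu), Sensaton_NZ_BnASSYST-414 (Se), Stellar DH JZ111 (St), Yudal_BnASSYST-241 (Yu) and Zephir_BnASSYST-068 (Ze), grown WL or WW, with leaves taken 4 times over the day (ZT1, ZT7, ZT13, ZT19). Of 355 libraries listed, 172 WL and 182 WW libraries were analysed, with up to 3 libraries in each group of 1 accession, treatment and time. At ZT19 there were 46 WL and 45 WW libraries in 32 groups, 27 of them with 3 libraries and 5 with 2. Total counts were 4950879 to 31799100 in the WL libraries at ZT19 (median 18334840) and 3216762 to 28835146 in the WW libraries at ZT19 (median 17262995). The labels give 14 h days in one field and 16 h days in another, and ZT19 falls in the dark under both; likewise day and night temperatures are 28 and 22 °C in one field and 22 and 18 °C in another. Whether a library is 1 plant or a pool is not given in the sources used here. The leaf identity of the tissue could not be checked with marker genes, because the sources used here pair the identifiers with no gene names.

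At ZT19, 2 libraries did not match the accession on their label, and they bear directly on these genes. Over the 2000 genes whose levels differed most between accessions, 352 libraries correlated best with the other libraries of their own accession (Pearson r, median 0.918, lowest 0.744). The library labelled Al WL ZT19 replicate 3 had r = 0.404 with the Al profile and 0.915 with the DH12 profile. The library labelled DH12 WW ZT19 replicate 3 had r = 0.322 with the DH12 profile and 0.886 with the Al profile. At ZT19 the first was 1 of 2 libraries labelled Al WL and the second 1 of 3 labelled DH12 WW, so a gene with more RNA in DH12 than in Al appears higher in WL than in WW in both accessions. Both libraries were left under their labels, since the labels define the groups, and the results at ZT19 that rest on them are given with and without them. In a like check of time of day over 3000 genes, 18 of the libraries analysed correlated best with another time, 2 of them at ZT19 (a WW library of Ab and a WL library of Mu).

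**Figure D1:**
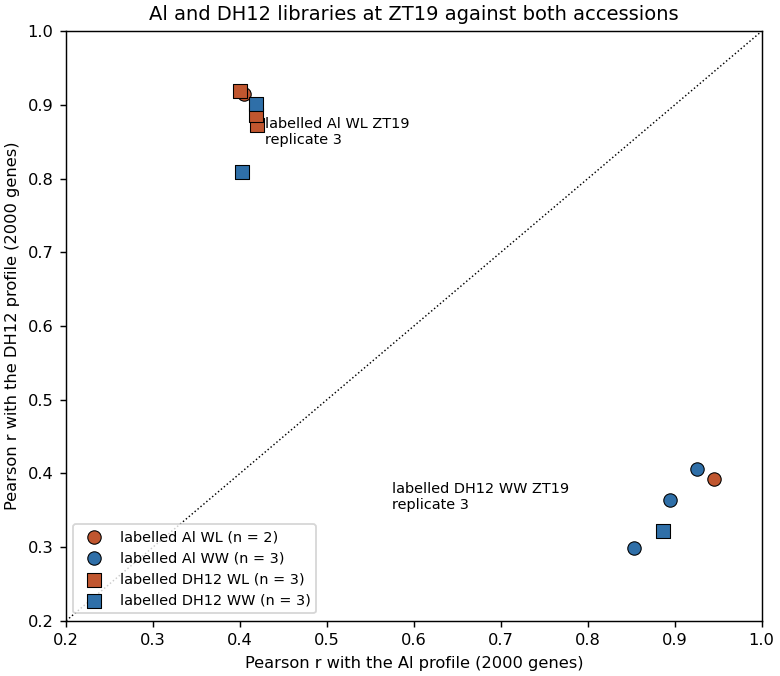
Pearson r of each library labelled Al or DH12 at ZT19 with the Al profile (x axis) and with the DH12 profile (y axis), over 2000 genes, with WL in orange, WW in blue, Al as circles and DH12 as squares. The library labelled Al WL ZT19 replicate 3 (0.404 and 0.915) lies among the DH12 libraries, and the library labelled DH12 WW ZT19 replicate 3 (0.886 and 0.322) lies among the Al libraries.

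With all libraries, the ZT19 difference of the 100 genes was 0.39 to 0.69 on the log2(CPM + 1) scale, with a median of 0.43, against a median of 0.00 over all 41325 genes. Their median differences at the other times were 0.01 at ZT1, 0.09 at ZT7 and 0.15 at ZT13. At ZT19 the spread between accessions was as large as the differences themselves. The median SD was 0.55 (range 0.21 to 1.48) over 16 accessions, against 0.35 over all genes. At ZT1, ZT7 and ZT13 some members had a wider spread than at ZT19 and others a narrower one. The SD was 0.68, 0.72 and 0.83 in Bo4g030820 (0.38 at ZT19), and 0.18, 0.16 and 0.38 in BraA04g30980R (0.84 at ZT19). A median of 13 of 16 accessions had a value above 0 at ZT19. Of the members, 43 were above 0 in at least 14 accessions, and 39 without the 2 libraries. With all libraries, 3 genes (Bo4g030820, BraA06g32420R and Bo9g010130) were above 0 in all 16. BraA06g32420R was named for this count, after its values were seen. Choosing high means favours such counts, so nothing is read from them. Sets chosen by the same rule for the other times, and for a fall at ZT19, had medians of 12 to 14 accessions of the same sign.

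Without the 2 libraries, 59 of the 100 genes were still among the first 100 and 41 were not. All 100 still had a value above 0, and 81 stayed above 0.25. The median over the 59 was 0.44 both with and without the 2 libraries, whereas the median over the 41 was 0.42 with them and 0.26 without. In the 41, the median difference was 2.15 in Al and 1.59 in DH12 with all libraries, against 0.24 in Al and 0.21 in DH12 without the 2. The 59 and the 41 were divided by their values without the 2 libraries. These contrasts are therefore partly fixed by the division, and nothing is read from them. In libraries of the other time points, the same 41 genes had a DH12 level above the Al level by a median of 3.69 (log2), with DH12 above Al by more than 1 in 32 of 41, while the 59 had a median of 0.16, with DH12 above Al by more than 1 in 7. The same rule applied to other times gave sets that changed less when the 2 ZT19 libraries were left out, as 95 of 100 genes stayed for a rise at ZT1 only, 93 for ZT7, 92 for ZT13 and 79 for a fall at ZT19 only. The sets for ZT1, ZT7 and ZT13 use ZT19 only as a limit, so this comparison is not one of like with like.

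**Figure D2:**
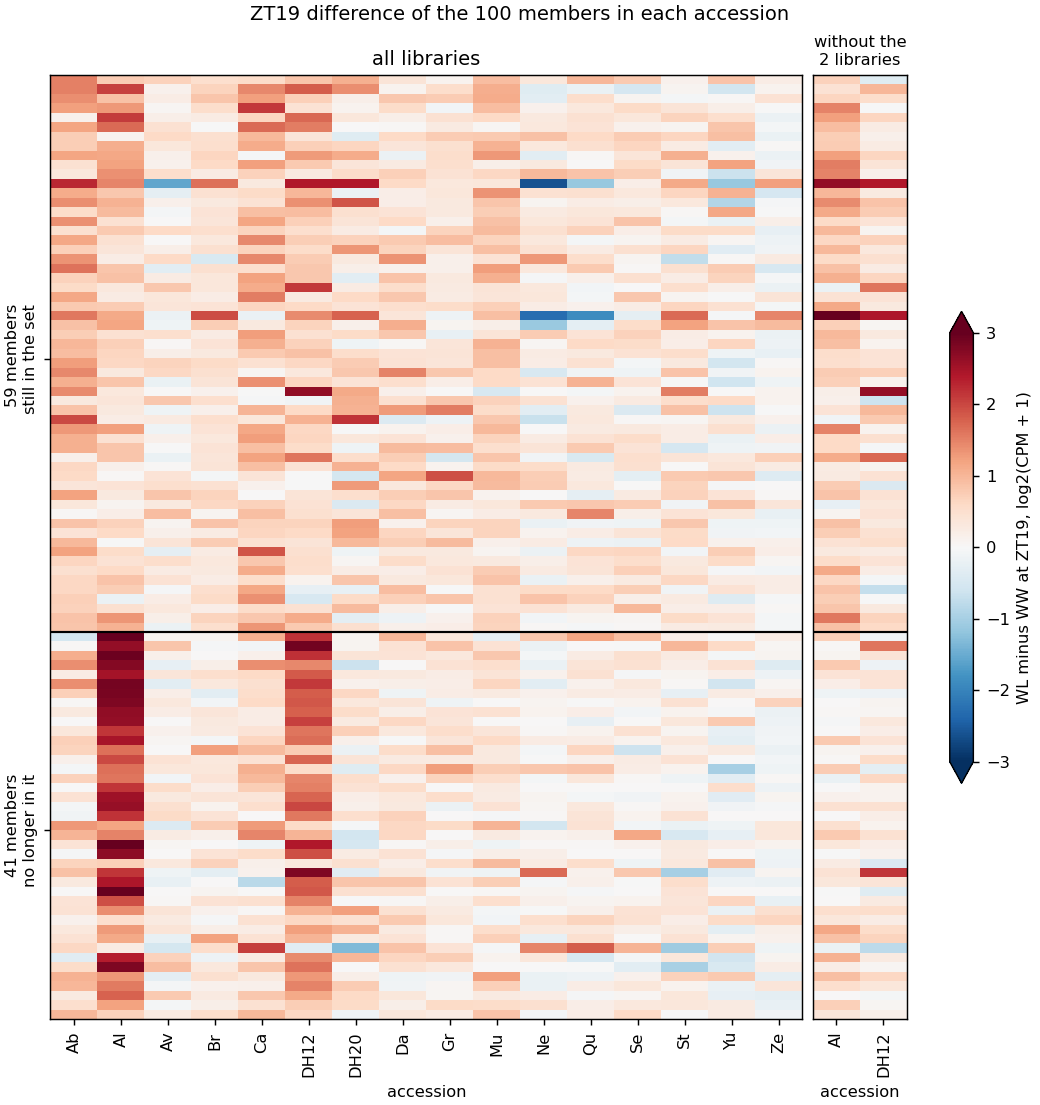
WL minus WW at ZT19 (log2(CPM + 1), color scale) of the 100 genes in each accession, with the 59 that stay in the set without the 2 libraries above the line and the other 41 below it. The narrow panel on the right gives Al and DH12 without the 2 libraries. Below the line the Al and DH12 columns are dark with all libraries (medians 2.15 and 1.59) and pale without the 2 (0.24 and 0.21). The line divides the genes by their values without the 2 libraries, so this contrast is partly fixed.

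The gene with the highest difference was Bo8g020580 on chromosome C8. Its CPM at ZT19 in Al was 2.1 and 187 in the WL libraries (replicates 2 and 3) and 0.306, 1.39 and 1.18 in the WW libraries. In DH12 it was 220, 133 and 174 in the WL libraries and 172, 200 and 0.663 in the WW libraries. Each value that stands apart belongs to 1 of the 2 libraries. The ZT19 difference was 0.69 ± 1.04 (SD, n = 16 accessions, 13 above 0) with them and 0.36 ± 0.52 without, and its rank fell to 129.

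BraA04g30980R, at rank 4, had 0.319 and 68.7 CPM in the Al WL libraries and 0.131, 0.424 and 0.228 CPM in the Al WW libraries, next to 88.0, 74.0 and 76.0 CPM in the DH12 WL libraries and 53.7, 67.9 and 0.429 CPM in the DH12 WW libraries. Al had almost none of this transcript in the libraries that match Al, under either treatment. The difference was 0.59 ± 0.84 over 16 accessions and 0.30 ± 0.31 without the 2 libraries. Bo2g024860, at rank 3, was at 41.4 CPM in the library labelled Al WL replicate 3 and at 0.127 CPM in the other WL library, against 0, 0.0941 and 0.228 CPM in the Al WW libraries. Its difference was 0.60 ± 0.93 with all libraries and 0.35 ± 0.50 without the 2, and DH12 kept the highest value of any accession (1.60). The median CPM of Bo2g024860 at ZT19 was 0.171 over the 46 WL libraries and 0.123 over the 45 WW libraries. The transcript was thus near 0 in many libraries, and its mean difference rests on a part of the accessions.

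**Figure D3:**
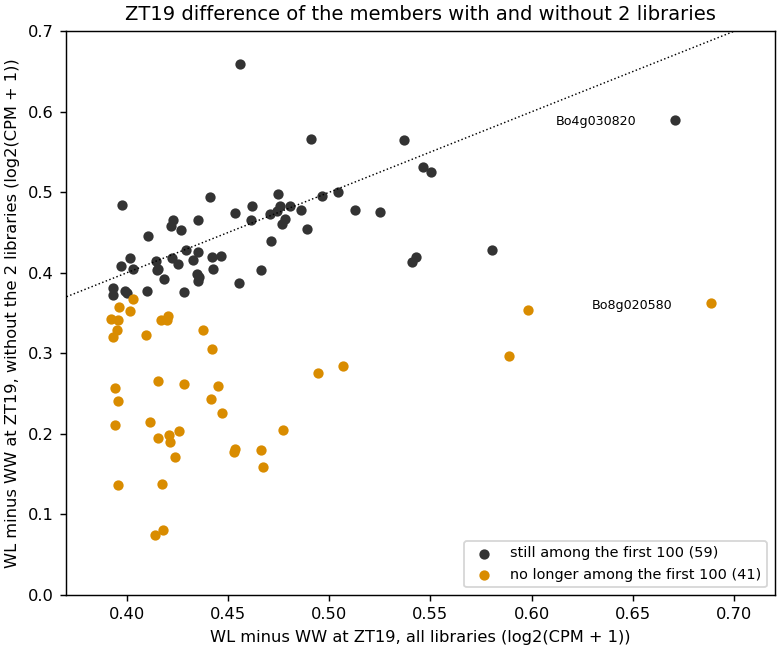
ZT19 difference (WL minus WW, log2(CPM + 1), mean over 16 accessions) of the 100 genes with all libraries (x axis) and without the 2 libraries that match another accession (y axis), with the line of equality dotted. The 59 genes that stay in the set (dark) lie on both sides of the line, while Bo8g020580 lies at 0.69 and 0.36 and the other 40 genes that leave the set (orange) lie below it. The colors divide the genes by the y axis value, so this contrast is partly fixed.

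Bo4g030820 on C4, at rank 2, was the highest of the genes that stayed. Its CPM at ZT19 ranged from 9.67 to 199 with a median of 71.7 in the 46 WL libraries, and from 3.73 to 161 with a median of 43.1 in the 45 WW libraries. The groups overlapped over most of their range, since the accessions and libraries differed widely. The difference was 0.67 ± 0.38 (SD, n = 16), from 0.12 in Gr to 1.52 in Ab, and 0.59 ± 0.46 without the 2 libraries, with 15 of 16 accessions above 0 and DH12 at -0.37. The neighbouring member Bo4g030810, the only one with an identifier number within 10 of another member on its chromosome, had a difference of 0.47 ± 0.64, with 14 of 16 accessions above 0, and of 0.48 without the 2 libraries. Across the 16 accessions the 2 neighbours had Pearson r = 0.28, given as a description of values that share libraries.

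BraA03g13840R on A03 was one of the more abundant members. It had 58.5 to 342 CPM with a median of 178 in the WL libraries at ZT19, and 25.8 to 277 CPM with a median of 120 in the WW libraries. In Al it had 123 CPM in the WL library that matches Al and 170 CPM in the one that matches DH12, against 56.3, 81.4 and 103 CPM in the WW libraries, so that the Al value rests on 1 matching WL library. The difference was 0.55 ± 0.50 over 16 accessions and 0.52 without the 2 libraries, with 14 of 16 accessions above 0 in both cases.

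All other genes among the 12 highest stayed in the set without the 2 libraries. They were Bo6g083480 (0.55 ± 0.59, and 0.53 without the 2 libraries), Bo9g163470 (0.54 ± 0.39, and 0.56), Bo4g024920 (0.53 ± 0.38, and 0.48), BraA03g08970R (0.51 ± 0.59, and 0.48), Bo5g132520 (0.54 ± 0.58, and 0.42), BraA03g22610R (0.54 ± 0.64, and 0.41) and BraA03g11130R (0.58 ± 0.86, and 0.43). Bo4g024920 had the highest median CPM of these, with 61.5 to 542 CPM (median 260) in the WL libraries at ZT19 and 34.0 to 352 CPM (median 169) in the WW libraries. BraA03g08970R, with medians of 29.5 CPM in WL and 19.9 CPM in WW, was the only member with a term in the part of the study's Gene Ontology table at hand, defense response to other organism, which the study transferred from Arabidopsis orthologs. That part annotates only 425 genes, so few members could have a term and nothing is read from the count.

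The limit of the set cut through a continuous range. The members ranked 96 to 100 (Bo9g123540, Bo3g061330, Bo4g045700, Bo3g003110 and BraA02g21010R) had differences of 0.39, and so had the next 5 genes outside it (BraAxxg20150R, Bo5g150200, Bo3g184510, Bo2g023250 and Bo5g132370). Among these 10, the values without the 2 libraries ran from 0.11 in Bo2g023250 to 0.38 in Bo4g045700 and Bo5g150200. Membership was sensitive to how the values were made, as 15 of the 100 genes stayed with the deposited log2 FPKM values, 25 with the median over accessions in place of the mean, and 14 without the libraries of replicate 3. Both libraries that match another accession carry that number. Without the libraries of replicate 1 and of replicate 2, 50 and 32 genes stayed. With replicate 2 left out, Al WL at ZT19 rested only on the library that matches DH12.

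**Figure D4:**
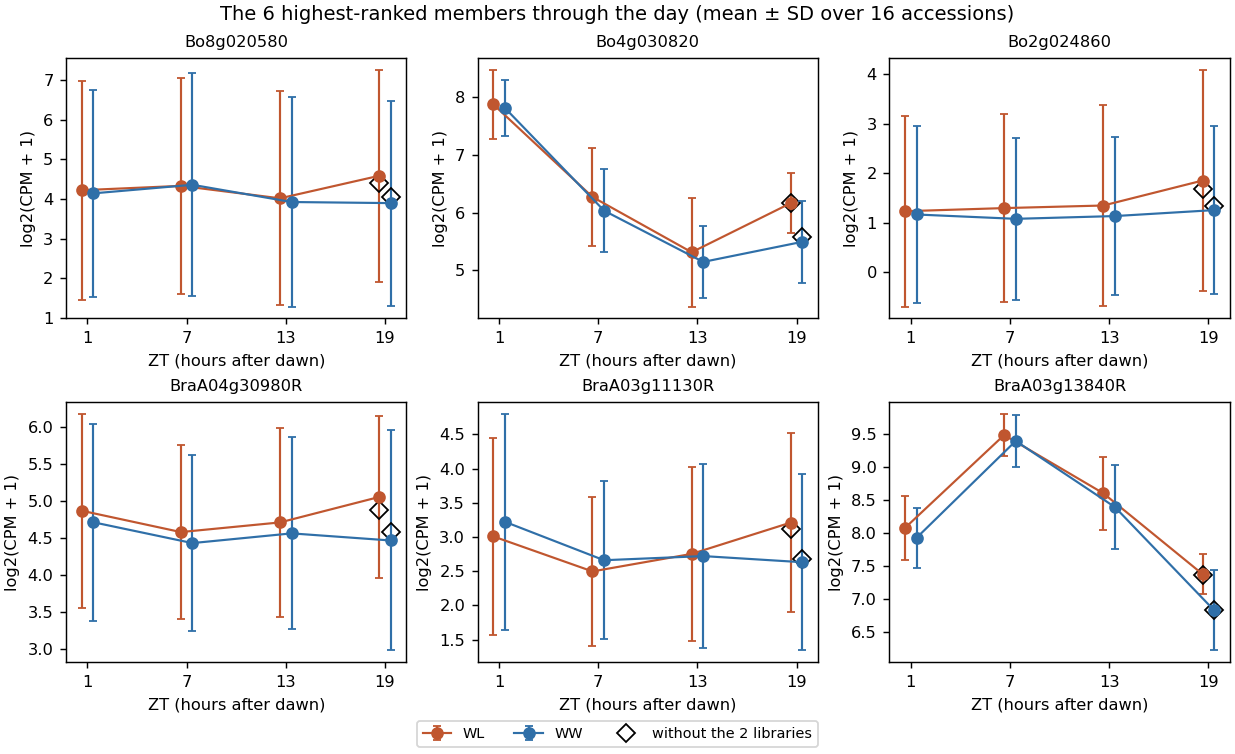
Levels (log2(CPM + 1), mean ± SD over 16 accessions) of the 6 highest-ranked genes at ZT1, ZT7, ZT13 and ZT19 in WL (orange) and WW (blue), with open diamonds for the ZT19 means without the 2 libraries. In Bo4g030820 (0.67 with all libraries, 0.59 without the 2) and BraA03g13840R (0.55 and 0.52) the diamonds stay near the filled points, while in Bo8g020580 (0.69 and 0.36) and BraA04g30980R (0.59 and 0.30) they draw together.

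The accessions did not contribute alike to the mean differences by which the genes were chosen. Over the 59 genes that stayed, and without the 2 libraries, the median difference at ZT19 was highest in Ab (0.86, 59 of 59 genes above 0), Ca (0.81), Al (0.75), Mu (0.68) and Da (0.51), and lowest in Ne (0.28), Yu (0.18), Av (0.17) and Ze (-0.01, 28 of 59 above 0). The value of Al rests on 1 WL library there. In Ab and Mu, 1 library each correlated best with another time of day, and without these 2 the medians were 0.61 in Ab and 0.55 in Mu, with 58 and 51 of 59 genes above 0. With all libraries, the medians over all genes that passed the filter ran from -0.15 in Yu to 0.15 in Ca. They were 0.03 in Ab, 0.09 in Al, -0.08 in Mu and -0.03 in Da. In Ne, Av and Ze they were -0.10, -0.04 and -0.04. The order of the accessions given above was not corrected for these shifts. The 59 genes were chosen for high means of these same differences, and again for staying without the 2 libraries. Such a choice favours accessions with large or widely varying values. Within an accession the genes also share libraries, so they are not separate measures of its response. The order and the counts of genes above 0 are therefore a description, and nothing is read from them.

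Whether the response at ZT19 differed between accessions was tested across all genes, with edgeR's quasi-likelihood F test of the 15 contrasts between accessions. With Benjamini-Hochberg adjusted p of 0.05, 1 of 100 members passed, where 33 of all 62140 genes tested (0.0531%) did, and without the 2 libraries 1 of 100 passed, where 0.0279% of all genes did. At an unadjusted p of 0.05, 33 members passed against 7.32% of all genes, and without the 2 libraries 9 members passed against 5.7%. A mean over accessions is high in genes with 1 or a few very high accessions, so that the choice of members is not independent of this spread, and nothing is read from the share of members.

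The member that passed was Bo7g115720 on C7 (edgeR adjusted p = 0.0181, and 0.028 without the 2 libraries), with a difference of 0.43 ± 0.76 over 16 accessions. In DH20 it had 120.6, 129 and 58.0 CPM in the WL libraries and 24.2, 23.3 and 15.4 CPM in the WW libraries, with every WL value above every WW value. In Ne it had 7.02, 15.6 and 18.7 CPM in the WL libraries and 22.1, 16.4 and 25.7 CPM in the WW libraries, and the groups overlapped. The differences were 2.18 in DH20, 1.98 in Ab and 1.05 in DH12, against -0.68 in Ne and -0.40 in Da. Its adjusted p over the alternatives ran from 3.39e-05 with DESeq2 to 1 without replicate 1, and it was 0.0753 without the libraries that match another time. The next 3 members by this test were Bo4g183430 (edgeR adjusted p = 0.0671), BraA04g30980R (0.0751) and BraA04g24590R (0.103), and without the 2 libraries their adjusted p were 0.491, 1 and 1. BraA04g24590R had 0.51 and 56.2 CPM in the Al WL libraries against 0.394, 0.424 and 0.608 CPM in the Al WW libraries, and 50, 49.2 and 55.5 CPM in the DH12 WL libraries against 49.8, 49.3 and 0.39 CPM in the DH12 WW libraries.

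The members with the widest spread were BraA09g04440R (0.49 ± 1.48), BraA09g28100R (0.46 ± 1.27), Bo1g037800 (0.42 ± 1.04) and Bo8g020580. The first pair, both on A09, had like profiles (a pair chosen after its values were seen), with Pearson r = 0.884 over the 16 accessions and 0.908 without the 2 libraries. BraA09g28100R was highest in Br (1.95), DH20 (1.76) and St (1.70) with all libraries, but without the 2 libraries it was highest in Al (3.39) and DH12 (2.42), and its mean was 0.66 ± 1.52. BraA09g04440R was highest in DH12 (2.40) and DH20 (2.40) with all libraries and in Al (2.64) without the 2, where its mean was 0.57 ± 1.56. Both values of Al without the 2 rest on 1 WL library. The lowest values were those of Ne (-2.29) and Qu (-1.88) in BraA09g28100R and of Ne (-2.62) and Av (-1.56) in BraA09g04440R, which the 2 libraries do not touch. Bo1g037800 was at 0.51 and 127 CPM in the Al WL libraries against 0.175, 0.235 and 0.152 CPM in the Al WW libraries, and its difference was 0.08 ± 0.22 without the 2 libraries. The narrowest spread was found in Bo9g010130 (0.40 ± 0.21, 16 of 16 accessions above 0), Bo9g151590 (0.46 ± 0.24, 15 of 16), Bo6g119820 (0.40 ± 0.25, 14 of 16) and BraA03g47380R (0.40 ± 0.29, 15 of 16), and the values of these 4 without the 2 libraries were 0.40, 0.47, 0.37 and 0.41.

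The choice did not set at which of the other times the genes were most expressed. The mean of WL and WW levels was compared between ZT1, ZT7 and ZT13, which the treatment difference does not fix, and ZT19 was left out because the choice raises WL there. By limma's F test with accession as a block (Benjamini-Hochberg adjusted p of 0.05 over all genes), 81 of 100 members changed with time, against 86.5% of all genes. This test is sensitive to scaling by library totals, and with TMM library sizes it called 80 of 100 members and 34047 of 41325 genes. Among the members that changed, 33 were highest at ZT1 (40.7%), 25 at ZT7 (30.9%) and 23 at ZT13 (28.4%). The shares over all genes that changed were 22.3% at ZT1, 18.9% at ZT7 and 58.8% at ZT13, and the difference between these shares was not tested.

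BraA05g30820R had the smallest p of the members (limma adjusted p = 7.64e-18), with levels of 4.34 at ZT1, 2.58 at ZT7 and 2.63 at ZT13 on the log2(CPM + 1) scale. Bo6g083480 likewise fell through the day, with 6.66 at ZT1, 6.05 at ZT7 and 4.96 at ZT13 (adjusted p = 5.44e-16 by limma). Bo8g080920 ran the other way, with 5.66 at ZT1, 8.03 at ZT7 and 7.25 at ZT13 (limma adjusted p = 5.47e-17), and so did BraA04g28490R, with 6.17, 7.34 and 7.43 (limma adjusted p = 8.23e-15). In Bo8g080920, the ZT19 level was 5.54 ± 0.53 in WL and 5.07 ± 0.66 in WW (SD, n = 16 accessions), and 5.55 in WL and 5.06 in WW without the 2 libraries. In WL this did not stand apart from ZT1 (5.55 ± 0.38), while ZT7 and ZT13 were higher. In Bo4g024920, ZT19 was the highest of the 4 times under both, at 7.90 ± 0.46 in WL and 7.37 ± 0.68 in WW, and at 7.88 in WL and 7.40 in WW without the 2 libraries. Over all members, the highest WL level was at ZT19 in 63 genes and the highest WW level was there in 21, against 43.1% of all genes in WL and 40.2% in WW, and both counts are partly fixed by the choice, which favours a high WL and a low WW level at ZT19, so nothing is read from them.

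By subgenome, the members were 50 BnA and 50 BnC genes, where BnA genes made up 46.4% and BnC genes 53.5% of those that passed the filter. Of the 59 that stayed without the 2 libraries, 26 were BnA and 33 BnC genes. Chromosomes were read from the identifiers of the B. rapa R500 and B. oleracea TO1000 annotations, as the deposited tables hold no coordinates. A04 held the most members, 11 of its 1261 genes (0.872%, against 0.242% of all genes), and none of these 11 stayed without the 2 libraries. Of these, 10 lay in the last 2 sixths of the A04 genes in identifier order. In the last sixth, the median difference over all 210 genes was 1.16 in Al and 0.79 in DH12 with all libraries, against 0.03 in Al and 0.04 in DH12 without the 2, and the 14 other accessions were between -0.17 and 0.16. In the last sixth of C4 (399 genes) the medians were -0.21 in Al and -0.10 in DH12 with all libraries, and 0.13 and 0.06 without the 2. The division into sixths was made after the values had been seen. Of the other chromosomes with at least 6 members, A07 kept 6 of 6, C4 7 of 8, C7 6 of 7 and A03 5 of 6. A09 kept 6 of 8, C5 4 of 6, C9 5 of 8 and C3 4 of 8.

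**Figure D5:**
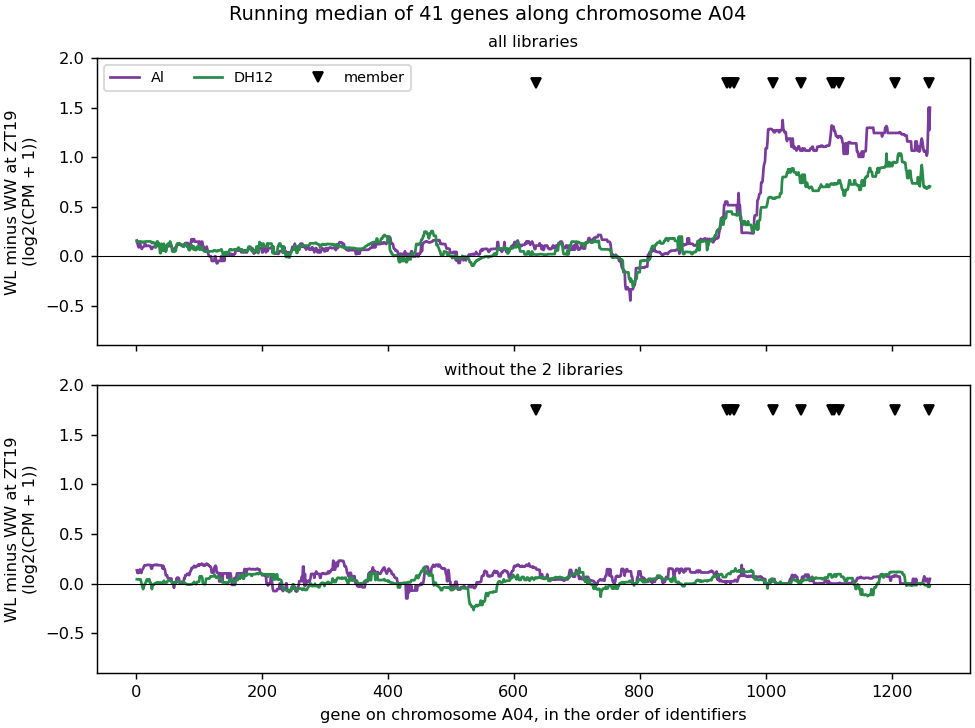
Running median over 41 genes of WL minus WW at ZT19 (log2(CPM + 1)) along chromosome A04, genes in the order of their identifiers, in Al (purple) and DH12 (green), with all libraries in the upper panel and without the 2 libraries in the lower one. Triangles mark the 11 members. In the last sixth the medians are 1.16 in Al and 0.79 in DH12 above, and 0.03 and 0.04 below.

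Genes with stress and metabolic annotations that are no members were counted at ZT19 in the same way. The lists were the broad descriptors of the study's response score Gene Ontology table, of which a part was at hand, and the study chose them on these samples, so they are not independent evidence of direction. By limma on the 16 accession differences (Benjamini-Hochberg adjusted p of 0.05), 8.71% of all genes were higher in WL at ZT19 and 11.0% lower. Of 114 biotic stress genes that are no members, 4 rose and 70 fell, with a median difference over the whole list of -0.51. BraA02g43070R, annotated like BraA03g08970R with defense response to other organism, was lower in 16 of 16 accessions (-1.32 ± 0.96, SD, limma adjusted p = 0.00102) and had differences of -1.30, -1.17 and -1.90 at ZT1, ZT7 and ZT13.

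Of 87 autophagy genes 4 rose and 27 fell (median -0.06), and of 17 abiotic stress genes 2 rose and 6 fell (median -0.16). Those with the largest change in these lists were BraA07g20790R, annotated with immune response and leaf senescence (-1.17 ± 1.23, adjusted p = 0.00794 by limma), and Bo9g010710, annotated with regulation of the response to water deprivation (-0.77 ± 0.77, limma adjusted p = 0.00626). Carbohydrate metabolic process was split, with 53 of 232 genes higher and 39 lower (median 0.04). BraA08g11330R of that list was higher by 1.63 ± 1.15 at ZT19, above 0 in 16 of 16 accessions (limma adjusted p = 0.000855). That call rests on a variance trend over the mean level at ZT19, a setting made after a first fit had been seen; with the default of limma, a trend over the mean difference itself, its adjusted p was 0.655. BraA08g11330R also had differences of the same sign at the other times, of 0.93, 1.63 and 1.61. Without replicate 2 the genes of the 4 lists that changed at ZT19 numbered 2, against 184 with all libraries, and without the 2 libraries 180. Over all 41225 genes that are no members, the calls fell likewise, from 8054 with all libraries to 266 without replicate 2. Without the 2 libraries, 4 biotic stress genes were higher and 66 lower, 3 autophagy genes higher and 24 lower, 2 abiotic stress genes higher and 7 lower, and 50 carbohydrate genes higher and 42 lower. The differences of BraA02g43070R, BraA07g20790R, Bo9g010710 and BraA08g11330R were then -1.36, -1.20, -0.78 and 1.81. With the default trend and all libraries the changed list genes numbered 181, and 0 without replicate 2. Over all genes that are no members, the calls with that trend numbered 7867 and 0.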

How the data were processed

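The authors trimmed reads with Trimmomatic 0.33, mapped them with HISAT2 2.1.0 to a reference that joins the R500 genome of B. rapa with the TO1000 genome of B. oleracea, and deposited estimated counts from featureCounts, in which a read with several alignments adds a fraction to each gene, so near-identical homoeologs and paralogs share reads. They also deposited log2 FPKM values, normalized within each accession with edgeR. No deposited column was left out (0 not used), and 1 listed library was not analysed here.

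CPM were computed from unrounded counts over column totals. Counts were rounded for edgeR 4.0.16 (glmQLFit and glmQLFTest, 32 group means at ZT19, TMM, filterByExpr) and DESeq2 1.42.0, and limma 3.58.1 was used with eBayes and a trend. For the ZT19 differences a first fit with the default covariate of limma (the mean difference) gave a standard error of 2.34 for BraA08g11330R, and after this was seen the covariate was set to the mean level at ZT19, which moved the genes called at ZT19 to 8129, against 7941 with the default. The tests were checked on simulated data. There, CPM by column totals, as used here for limma, led to a larger share of unchanged genes called, above all in the time-of-day test, because changed genes shift the totals. The check was passed with the true library sizes, adopted after this was seen, so it does not cover that scaling: the limma counts made with it, time of day above all, may hold many genes that did not change. TMM scaling was run as the alternative. Replicates are taken as separate samples from the labels. The p-values of edgeR and DESeq2 measure only the spread between replicates. Those of limma measure the spread between accessions, in the ZT19 difference or in the change with time.

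The members and lists were chosen with earlier results of these data known. Named genes were the 12 with the highest difference, those ranked 96 to 105, the 4 with the smallest p in each of 2 tests, members with a Gene Ontology term, the non-member of each list with the largest difference, neighbours within 10 identifier numbers, and the 4 members with the largest and the 4 with the smallest SD. Leaving out the 2 libraries that match another accession, or those that match another time, and the default trend of limma were alternatives chosen after the data were seen. Other alternatives were TMM and RLE scaling, pseudocounts, filters, limits, log2 FPKM, medians, DESeq2, a replicate block, and leaving out each replicate number and accession.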

Additional observations from a re-analysis of the deposited data

Results flagged for a closer look

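One member, Bo7g115720, differed between accessions in its WL response at ZT19 (edgeR, adjusted p = 0.0181, and 0.028 without the 2 libraries that match another accession). Its difference was above 0 in 13 of 16 accessions, highest in DH20 (2.18) and lowest in Ne (-0.68). The call was lost without the libraries that match another time (edgeR adjusted p = 0.0753; 1 of them is a WW library of Ab, where the difference was 1.98), with the replicate number as a block (0.312), and without replicate 1, 2 or 3 (1, 0.23 and 0.439). With DESeq2 the adjusted p was 3.39e-05.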

How the results depend on the processing

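The number of members that stayed in the set was 48 with a pseudocount of 5, 15 with log2 FPKM, 25 with the median over accessions, 18 with a limit of 0.15 and 46 with a limit of 0.35, and, as alternatives chosen after the data were seen, 59 without the 2 libraries that match another accession and 73 without those that match another time. It was 14 to 50 when a replicate number was left out and 51 (without Al) to 80 (without Ze) when an accession was, and 68 to 97 under TMM, a pseudocount of 0.5 and other filters. In every result without replicate 2, Al WL at ZT19 rested only on the library that matches DH12. No member stayed under all 28 planned settings (median 17). Among 1040 values of named genes under the alternatives, 2 changed sign: Bo1g037800 without replicate 3 (-0.15, with 0.93 the highest when a replicate was left out) and BraA09g04440R with log2 FPKM (-0.11). The edgeR test between accessions called 0 members at an adjusted p of 0.01, 0 with any replicate number left out (0 to 0), 0 without the libraries that match another time and 23 with DESeq2, which called 1355 of 62140 genes against 33 by edgeR (43 with RLE, 84 without replicate 3, 0 without replicate 1 or 2). With the replicate number as a block it called 0 members and 13 genes. The deviations of same-numbered WL and WW libraries had a median r of -0.031 over 43 pairs (-0.78 to 0.774, 14 over 0.1). Libraries of different number had a median r of 0.028 over 86 pairs. With so wide a range in groups of at most 3 libraries, these values cannot settle whether the numbers pair the libraries. The list genes changed at ZT19 numbered 93 at an adjusted p of 0.01 and 2 to 172 when a replicate number was left out. Over all 41225 genes that are no members, these counts were 2908, and 266 to 7637. With the default trend of limma, an alternative added after the data were seen, the list genes numbered 181, and 0 without replicate 2. Over all genes that are no members, 7867 and 0 were called with it. The number of members that changed with time of day was 71 to 86 under every alternative run. Of all 41325 genes, 31723 changed where 71 members did (without replicate 2). Where 86 members did (without the libraries that match another time), 36158 of all genes changed. Nothing is read from this range. Members that are low in all but a few accessions rest on those few accessions.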
